A study of Mus musculus with 9 samples.

Results

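The genes described here were the 265 genes of mouse chromosome 12 with a single annotated symbol and a mean above 7 on the log2 scale in wild type cells, out of 624 such genes of that chromosome and 18194 genes on the arrays in all. Each gene was represented by its probe set of highest mean over the 9 arrays, and Scin, Fos, Odc1, Rrm2 and Id2 were left out by name, of which 3 would have passed the level threshold. The chromosome was chosen because its genes lay higher in K/L leukaemic arrays than in wild type arrays, so the K/L values below, and counts of K/L differences past a threshold, are a description and support nothing by themselves. That choice made no use of the difference between Sox4 leukaemic and wild type arrays.

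Gene expression was measured on Affymetrix arrays in sorted blood cells of C57/BL6 mice aged 2 to 4 months, with 3 arrays in each of 3 groups. The cells were the FrII fraction, which lacks lineage markers and Sca-1, carries c-Kit and has low or positive Mac1, and the leukaemic samples are also labelled CD45.1-negative and CD45.2-positive. The groups were wild type mice, leukaemic mice overexpressing Sox4, and leukaemic K/L mice, which carry bi-allelic mutations of Cebpa. The labels do not say how the leukaemias were raised or whether the 3 arrays of a group hold separate leukaemias, so the spread between arrays may be technical in part. Of the gate's genes, Kit, which encodes c-Kit, had group means of 9.17 (wild type), 9.18 (Sox4) and 9.22 (K/L), while Itgam, of Mac1, was low in all groups (4.91, 4.20 and 3.83). Of the progenitor genes listed with them, Mpo was at 13.88, 13.90 and 13.81, Cd34 at 11.73, 10.99 and 11.70, and Csf3r at 7.56, 7.76 and 7.06, in the same order of groups. Wild type array 3 stood apart, with 404 and 500 genes over 2-fold from the other wild type arrays, where every other pair of replicates had 18 to 68.

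A cell with an extra copy of a chromosome tends to make more RNA from most genes on it, while single genes can be set higher or lower by their own regulators. Gains and losses of whole chromosomes are common in acute leukaemia. DNA copy number was not measured here, and its part in these values was not tested. In bulk samples such as these, fewer cells of a type and less RNA per cell cannot be told apart.

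The bases just before the start of 4 genes are shown because these genes span the range of K/L values: Dglucy had the highest K/L difference, Acp1 lay near the chromosome's median, and Map4k5 and Galc lay below 0. Each has 1 annotated start. The sequences are the 250 bases upstream of that start in RefSeq (GRCm38.p6), written 5′ to 3′ on the gene's strand, with each CG in capitals.
Dglucy, chr12:100778807-100779056, plus strand: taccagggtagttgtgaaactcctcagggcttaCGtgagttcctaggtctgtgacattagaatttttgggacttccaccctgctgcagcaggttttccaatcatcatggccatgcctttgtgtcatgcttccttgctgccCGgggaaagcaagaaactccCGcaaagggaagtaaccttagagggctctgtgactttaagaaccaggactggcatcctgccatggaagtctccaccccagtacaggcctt
Acp1, chr12:30911613-30911862, minus strand: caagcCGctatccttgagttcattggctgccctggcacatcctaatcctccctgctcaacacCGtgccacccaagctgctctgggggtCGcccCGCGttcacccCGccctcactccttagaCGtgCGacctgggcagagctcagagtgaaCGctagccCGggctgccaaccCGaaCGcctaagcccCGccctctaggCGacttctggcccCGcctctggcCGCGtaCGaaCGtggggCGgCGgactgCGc
Map4k5, chr12:69893164-69893413, minus strand: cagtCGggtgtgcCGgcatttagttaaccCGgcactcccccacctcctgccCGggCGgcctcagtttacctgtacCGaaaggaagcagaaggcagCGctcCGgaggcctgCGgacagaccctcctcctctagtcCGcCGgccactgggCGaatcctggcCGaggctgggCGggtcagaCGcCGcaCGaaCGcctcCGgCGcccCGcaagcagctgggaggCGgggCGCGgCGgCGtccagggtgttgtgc
Galc, chr12:98259460-98259709, minus strand: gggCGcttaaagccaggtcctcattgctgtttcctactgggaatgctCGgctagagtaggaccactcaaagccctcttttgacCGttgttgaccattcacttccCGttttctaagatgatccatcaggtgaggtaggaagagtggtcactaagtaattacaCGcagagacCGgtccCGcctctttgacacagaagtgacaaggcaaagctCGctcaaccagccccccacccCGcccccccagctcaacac
The windows held 3 CG for Dglucy, 22 for Acp1, 26 for Map4k5 and 9 for Galc. Among these 4 the order of CG number was not the order of the K/L difference, but they do not stand for their classes. By the classes defined below, Dglucy was the 1 of 35 exceeding genes with fewer than 5 CG. Neither Map4k5 nor Galc was among the 10 of 59 escaping genes with fewer than 5.

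The median of the chromosome's genes lay higher in K/L cells, while 67 of the 265 lay at or below their wild type mean. The median of the 265 genes, each taken relative to its wild type mean, was 0.34, 0.36 and 0.34 on the 3 K/L arrays on the log2 scale. It was 0.03, -0.01 and 0.01 on the wild type arrays and -0.04, -0.01 and -0.06 on the Sox4 arrays. All 3 K/L arrays lay above all 6 others. The median difference between K/L and wild type means was 0.33, a 1.26-fold higher level, with quartiles of -0.01 and 0.66. Over 6895 genes of chromosomes 1 to 19 without 6 and 12, and of X, chosen by the same wild type level, the median was -0.03, and the 18 chromosomes among them had medians from -0.18 (chromosome 13) to 0.10 (chromosome 19). Chromosome 6 (371 genes) also stood apart, at 0.36.

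**Figure D1:**
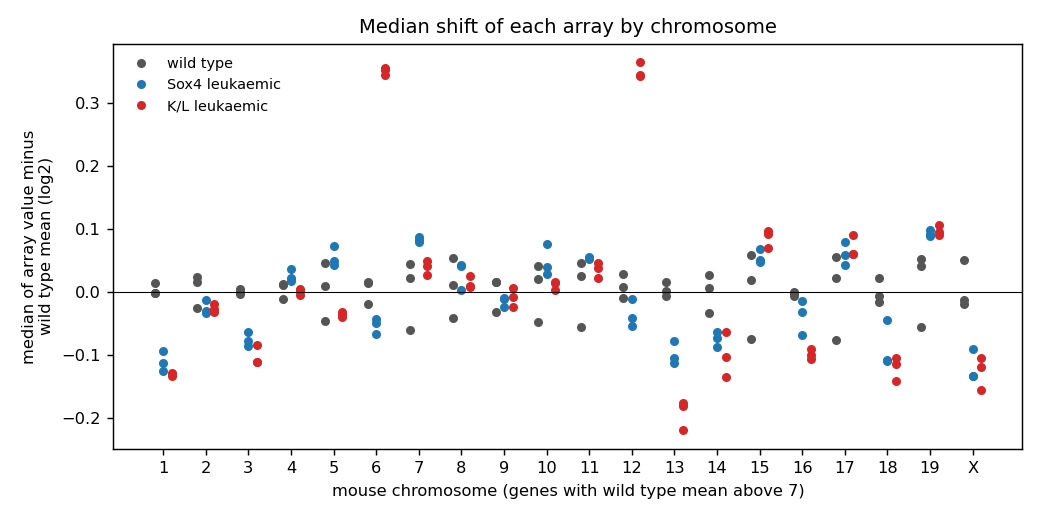
Median over genes of the array value minus the wild type mean (log2, vertical axis) for each chromosome (horizontal axis), 1 point per array. The 3 K/L arrays stand at 0.34 to 0.36 on chromosome 12 and as high on chromosome 6, while the Sox4 arrays lie near 0 on both.

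Of the 265 genes, 141 were higher in K/L than in wild type cells by limma (adjusted p below 0.05), 36 were lower and 88 did not pass. Among all 12866 genes tested, 28.7% were higher and 21.6% lower in that comparison, and on the other chromosomes 26% and 30%. The K/L arrays all lay above the wild type arrays in 155 genes and below them in 44, where 32.8% and 25.2% of all genes tested did. Against Sox4 cells, 144 were higher in K/L and 8 lower, where 14.7% and 14.1% of all genes tested were, and 11.8% and 15% on the other chromosomes. The arrays of these groups did not overlap in 206 genes with K/L higher and 16 with K/L lower, against 27.1% and 24% of all genes tested. The median K/L minus Sox4 difference was 0.40, and 235 of the 265 genes had a difference above 0. Both comparisons use the K/L arrays for which the chromosome was chosen.

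By the probe set used for each gene, the chromosome's median was near 0 in Sox4 leukaemic cells. That comparison was not used to choose the genes, although it shares the wild type arrays. The median Sox4 minus wild type difference was -0.04. With the mean of all probe sets it was -0.18, a distance of -0.12 from the median of the other chromosomes. By limma, 59 genes rose (22.3%) and 83 fell (31.3%), where 26.6% of all genes tested rose and 21.1% fell. Among genes of the other chromosomes with the same wild type level, 25.9% rose and 27.3% fell. The Sox4 arrays all lay above the wild type arrays in 79 genes and below them in 97, against 31% and 25.1% of all genes tested. Markers of other cell types moved in the same comparison: the summed signal of 3 megakaryocyte markers ran from 7.25 to 7.96 in wild type and from 10.2 to 10.9 in Sox4 cells (Pf4 3.56 and 10.24), and that of 3 erythroid markers from 6.64 to 7.27 and from 8.08 to 8.15. In K/L cells these sums were 7.39 to 7.43 and 6.77 to 6.81. Their part in the Sox4 values of chromosome 12 genes was not tested.

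Genes were sorted by how far they departed from the chromosome's median of 0.33. A gene was said to exceed it when its K/L minus wild type difference was more than 0.5 above that median, to escape it when the difference was at or below 0, and otherwise to follow it. There were 39 genes that exceeded, 159 that followed and 67 that escaped. Of the 67, 18 lay between -0.17 and 0, within 0.5 of the median, and were counted as escaping because that class was given precedence. On the other chromosomes the same limits held 8.48%, 39.3% and 52.3% of genes, against 14.7%, 60.0% and 25.3% here. On chromosome 6 they held 18.9%, 53.9% and 27.2%, so these shares are not particular to chromosome 12. The genes nearest the upper limit were Gpatch2l (0.82) and Entpd5 (0.83) inside, and Nbas (0.85) and Dcaf5 (0.86) outside. Those nearest 0 were Kif3c and Vipas39 (both -0.01) below, and Hbp1 and Mipol1 (both 0.00) above.

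Most genes that exceeded the chromosome in K/L were also higher in Sox4 cells, as were genes within the same limits on other chromosomes. Their median difference from wild type was 1.15 in K/L and 0.63 in Sox4 cells, and 32 of the 39 rose in Sox4 cells by limma while 0 fell. On the other chromosomes the medians were 1.11 and 0.98, and 499 of 585 such genes rose and 13 fell, so the count is not particular to chromosome 12. Dglucy, which encodes D-glutamate cyclase, was at 6.97 to 7.28 on the wild type arrays, 8.29, 8.13 and 8.04 on the Sox4 arrays and 9.39, 9.55 and 9.48 on the K/L arrays. The 3 groups did not overlap, and the rise in Sox4 cells was 1.07 ± 0.11 (SE; limma adjusted p = 5.08e-05), beside 2.39 in K/L. Rin3, a guanine exchange factor for Rab5 GTPases, was at 7.62, 8.05 and 6.84 on the wild type arrays, 8.61, 8.89 and 8.85 on the Sox4 arrays and 9.58, 9.61 and 9.66 on the K/L arrays. Its wild type arrays spread over more than 1 unit, yet the groups did not overlap, and it rose by 1.28 ± 0.25 in Sox4 cells (limma adjusted p = 0.002). Batf, an AP-1 family transcription factor, rose in Sox4 cells by 1.32 (limma adjusted p = 0.000102) and lay 1.63 above wild type in K/L.

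For Crip1 and Tedc1 the K/L arrays lay well above both other groups. Crip1, a small LIM domain protein, was at 9.47, 9.57 and 8.99 on the wild type arrays, 9.33, 9.84 and 9.67 on the Sox4 arrays and 11.06, 11.09 and 11.22 on the K/L arrays. The wild type and Sox4 arrays overlapped (limma adjusted p = 0.228), and all K/L arrays lay above both. Tedc1, a tubulin-associated protein of centrioles and the gene next after Crip1 among the 265, measured 9.96, 10.09 and 9.74, then 10.40, 10.24 and 10.37, then 11.53, 11.49 and 11.47. Its rise in Sox4 cells was 0.40 ± 0.11 (limma adjusted p = 0.0107), and in K/L it lay 1.57 above wild type.

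Ighm, the heavy chain of immunoglobulin M, lay 1.66 above wild type in K/L and rose by 1.57 in Sox4 cells (limma adjusted p = 9.87e-05), with no difference past the test between the leukaemias (0.09). Only 2 of its 11 probe sets showed these differences. The summed signal of 4 B cell markers was 7.50 to 7.67 in wild type, 8.65 to 8.95 in Sox4 and 8.52 to 8.66 in K/L, and 3 of the 4 lay higher in K/L than in wild type cells without overlap. By group mean, in the order wild type, Sox4, K/L, Cd79b was at 6.70, 8.60 and 8.08, Cd79a at 4.98, 4.34 and 6.08, Ebf1 at 4.28, 4.41 and 4.53 and Pax5 at 5.07, 4.84 and 4.79. The part of B cell RNA in the Ighm values was not tested.

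The genes that followed had a median wild type level of 9.38, against 7.86 for those that exceeded and 8.88 for those that escaped, and included 6 of the 8 most abundant genes. The lysosomal cholesterol carrier Npc2 (12.36 in wild type, -0.12 in K/L) and the splicing factor Srsf5 (11.90, -0.43), also among the 8, escaped. The Npc2 difference did not pass the test (limma adjusted p = 0.279). Its second probe set lay 0.09 above wild type in K/L, so its place among the escaping genes rests on the probe set. Psma6, a subunit of the 20S proteasome, was at 12.67, 12.55 and 12.65 on the wild type arrays, 12.39, 12.42 and 12.38 on the Sox4 arrays and 12.89, 12.82 and 12.80 on the K/L arrays. The K/L arrays lay above all others and the Sox4 arrays below all others, and the fall in Sox4 cells was -0.23 ± 0.08 (limma adjusted p = 0.0451). That call was lost in 8 of the 9 fits that left out 1 array, at differences of -0.26 to -0.21. The ribosomal protein gene Rps29, the most abundant of the 265, lay 0.19 above wild type in K/L and Rps7 0.21, beside -0.09 and -0.04 in Sox4 cells, neither past the test. The chaperone Hsp90aa1 lay 0.24 above wild type in K/L and 0.10 in Sox4 cells.

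Acp1, a low molecular weight tyrosine phosphatase, moved in opposite directions in the leukaemias. It was at 11.86, 11.60 and 11.84 on the wild type arrays, 11.24, 11.35 and 11.41 on the Sox4 arrays and 12.15, 12.23 and 12.22 on the K/L arrays, with no overlap between groups. It fell in Sox4 cells by 0.43 on the log2 scale (limma adjusted p = 0.00557) and lay 0.43 above wild type in K/L. Its second probe set gave smaller differences of the same signs (-0.13 and 0.14). Nfkbia, the inhibitor of NF-kappaB, gave the same pattern, at 10.85, 11.20 and 10.83 on the wild type arrays, 10.47, 10.28 and 10.51 on the Sox4 arrays and 11.46, 11.54 and 11.54 on the K/L arrays. The groups did not overlap, and the fall in Sox4 cells was -0.54 (limma adjusted p = 0.00419).

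Most of the 67 escaping genes lay low in Sox4 cells too. In Sox4 cells 55 of them fell against wild type and 2 rose, where 1751 of 3603 genes at or below 0 on the other chromosomes fell and 163 rose. The cut at 0 took 25.3% of genes here and 52.3% there, so these counts come from unlike parts of each set and are not directly comparable. On chromosome 6, where it took 27.2%, 72 of 101 such genes fell and 4 rose, so the pattern is not particular to chromosome 12. In K/L, 47 of the 67 lay above Sox4 cells, 27 of them past the limma threshold, and 6 lay below it past the threshold, beside 302 above and 802 below among the 3603. The class was set by the same K/L arrays, so these last counts are a description. Their median difference was -0.41 for K/L minus wild type, -0.68 for Sox4 minus wild type and 0.28 for K/L minus Sox4. On the other chromosomes, genes at or below 0 had a median K/L minus Sox4 difference of -0.09, and on chromosome 6 of 0.19. Both leukaemias were set against the same wild type arrays.

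Dnmt3a, the de novo DNA methyltransferase often mutated in myeloid leukaemia, shows this. It was at 12.14, 11.94 and 11.57 on the wild type arrays, 10.74, 10.80 and 10.62 on the Sox4 arrays and 11.84, 11.81 and 11.95 on the K/L arrays. The wild type and K/L arrays overlapped, and all Sox4 arrays lay below both, with a fall of -1.16 ± 0.14 (limma adjusted p = 0.000101). Its 4 other probe sets lay 0.18 to 0.45 above wild type in K/L, so its place among the escaping genes rests on the probe set. Map4k5, a kinase of the stress-activated MAP kinase cascade, was at 8.76 to 9.02 on the wild type arrays, 7.06, 7.04 and 7.18 on the Sox4 arrays and 8.18, 8.03 and 8.18 on the K/L arrays. The groups did not overlap, and it fell by 1.83 in Sox4 cells on the log2 scale (limma adjusted p = 7.57e-07).

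A few genes were low in K/L against both other groups. Galc, the lysosomal galactosylceramidase, was at 8.58, 8.46 and 8.43 on the wild type arrays, 7.65, 7.58 and 7.80 on the Sox4 arrays and 4.09, 4.49 and 4.43 on the K/L arrays, a K/L difference of -4.15 from wild type and -3.34 from Sox4. Its second probe set gave -2.89 and -2.01, and a further one lay at the floor of the table on all wild type arrays. Tnfaip2, a TNF-induced gene of myeloid cells, rose in Sox4 cells by 0.81 (limma adjusted p = 0.000155) and lay 1.41 below wild type in K/L, at 8.32 against 9.73. The other 4 escaping genes past the limma threshold and lower in K/L than in Sox4 cells were the acyl-CoA thioesterase Acot1, the proton-sensing receptor Gpr65, the Rap exchange factor Rapgef5 and Bzw2. The direction for Bzw2 rests on the probe set: it was -0.88 from wild type and -0.64 from Sox4 by the one used, and 1.16 and 0.57 by its second. Acot1 has near-identical relatives, so its values are uncertain.

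Bcl11b, a T cell transcription factor, was low in both leukaemias. It was at 9.41, 9.35 and 8.45 on the wild type arrays, 4.35, 4.27 and 4.41 on the Sox4 arrays and 4.15, 4.81 and 4.51 on the K/L arrays. The leukaemic arrays overlapped each other and lay far below wild type, and the fall in Sox4 cells was -4.72 ± 0.25 (limma adjusted p = 5.04e-07). The summed signal of 3 T and NK cell markers was low in all groups, at 5.63 to 5.92 in wild type, 5.95 to 6.16 in Sox4 and 6.01 to 6.19 in K/L. The part of T cell RNA in the Bcl11b values was not tested. Greb1, an oestrogen-responsive gene, fell by 3.74 in Sox4 cells on the log2 scale (limma adjusted p = 4.48e-07) and lay 3.84 below wild type in K/L. The leukaemic means of Bcl11b (4.35 and 4.49) and Greb1 (3.83 and 3.73) lay below the 40th percentile of all probe sets, which was 4.84 to 4.95 on the arrays. The K/L means of Galc (4.34), Rapgef5 (4.52) and Acot1 (4.83) did too, so the exact size of all these differences rests on little signal. In contrast Nampt, which makes NAD precursors, had the largest rise of the 265 in Sox4 cells (1.86, limma adjusted p = 7.53e-06) and lay 1.46 above wild type in K/L.

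**Figure D2:**
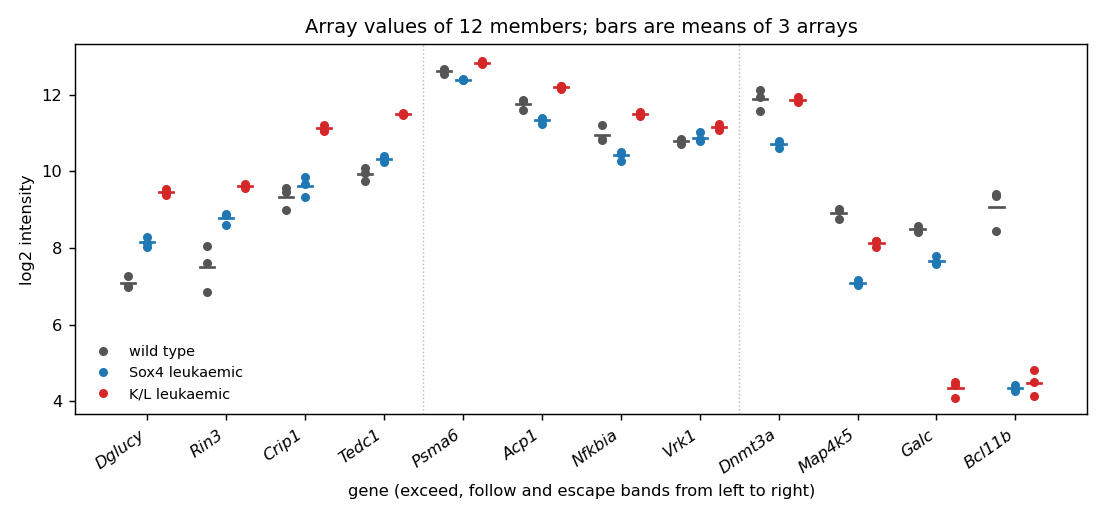
Log2 intensity (vertical axis) of 12 genes on each array, with bars at the means of 3 arrays; genes that exceed, follow and escape run from left to right. The K/L points lie highest for Dglucy and Acp1, the Sox4 points lie lowest for Dnmt3a and Map4k5, and both leukaemias are near 4 for Bcl11b.

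With 1 probe set per gene, the K/L difference was smaller in more abundant genes, as it was on the other chromosomes. In tertiles of wild type level (7.01 to 8.42, 8.45 to 9.89 and 9.90 to 13.46) the median K/L minus wild type difference was 0.49, 0.37 and 0.24, beside 0.09, -0.04 and -0.10 for other chromosomes in the same ranges. Against Sox4 cells the medians were 0.48, 0.33 and 0.39, beside 0.01, -0.03 and -0.02. The order was not kept by other choices: with the mean of all probe sets the lowest and middle tertiles had 0.24 and 0.29, and with a wild type threshold of 8 they had 0.33 and 0.39. The spread was wider in the lowest tertile, which held 25 of the 39 exceeding genes, as it was on the other chromosomes. There the same ranges (2455, 2423 and 1916 genes) held 355, 170 and 48 exceeding genes. Distances between quartiles were 0.94, 0.63 and 0.48 here and 0.93, 0.76 and 0.54 there. The escaping genes were spread evenly here (22, 23 and 22), beside 1104, 1291 and 1158 there. Genes just above the level threshold were Ap4s1 (7.01), Abcd4 (7.03) and Hs1bp3 (7.04), and just below it Id2 (6.98), Zfp277 (6.96) and Zfyve26 (6.92).

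**Figure D3:**
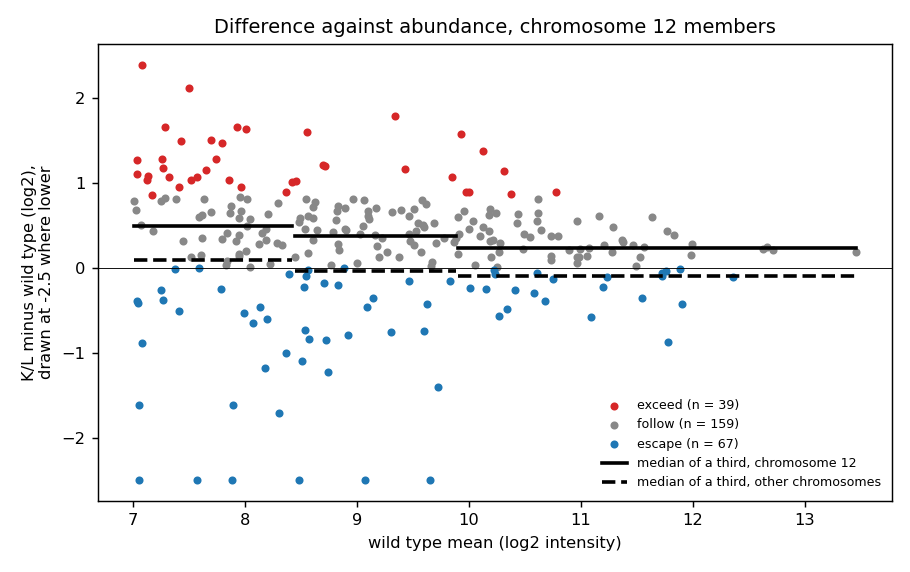
K/L minus wild type difference (log2, vertical axis) against the wild type mean (log2 intensity, horizontal axis) for the 265 genes, coloured by class, with lines at the median of each tertile. The chromosome 12 line falls from 0.49 to 0.24 and stays above that of the other chromosomes, which falls from 0.09 to -0.10.

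The K/L median was above 0 in each of 5 parts of the chromosome. In 5 blocks of 53 genes in order of position, the median K/L minus wild type difference was 0.22 (Rab10os to Hbp1), 0.20 (Prkar2b to Arf6), 0.44 (Vcpkmt to Zfp410), 0.40 (Entpd5 to Btbd7) and 0.39 (Ddx24 to Sp4). The K/L minus Sox4 medians were 0.40, 0.36, 0.48, 0.44 and 0.28. The second block, the lowest against wild type, had a Sox4 minus wild type median of -0.24, the lowest of the 5. Of 251 running windows of 15 genes, the K/L median was above 0 in 248 against wild type and in 251 against Sox4 cells, while the Sox4 median was above 0 in 96. The lowest window against wild type ran from Dus4l to Bzw2, at -0.11, where the Sox4 median was -0.46 and K/L lay 0.26 above Sox4 cells. The highest ran from Fcf1 to Gstz1, at 0.81. With a wild type threshold of 8 the second block was at 0.042, and with the mean of all probe sets the lowest window was at -0.27. Neighbouring windows share genes and are not independent.

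**Figure D4:**
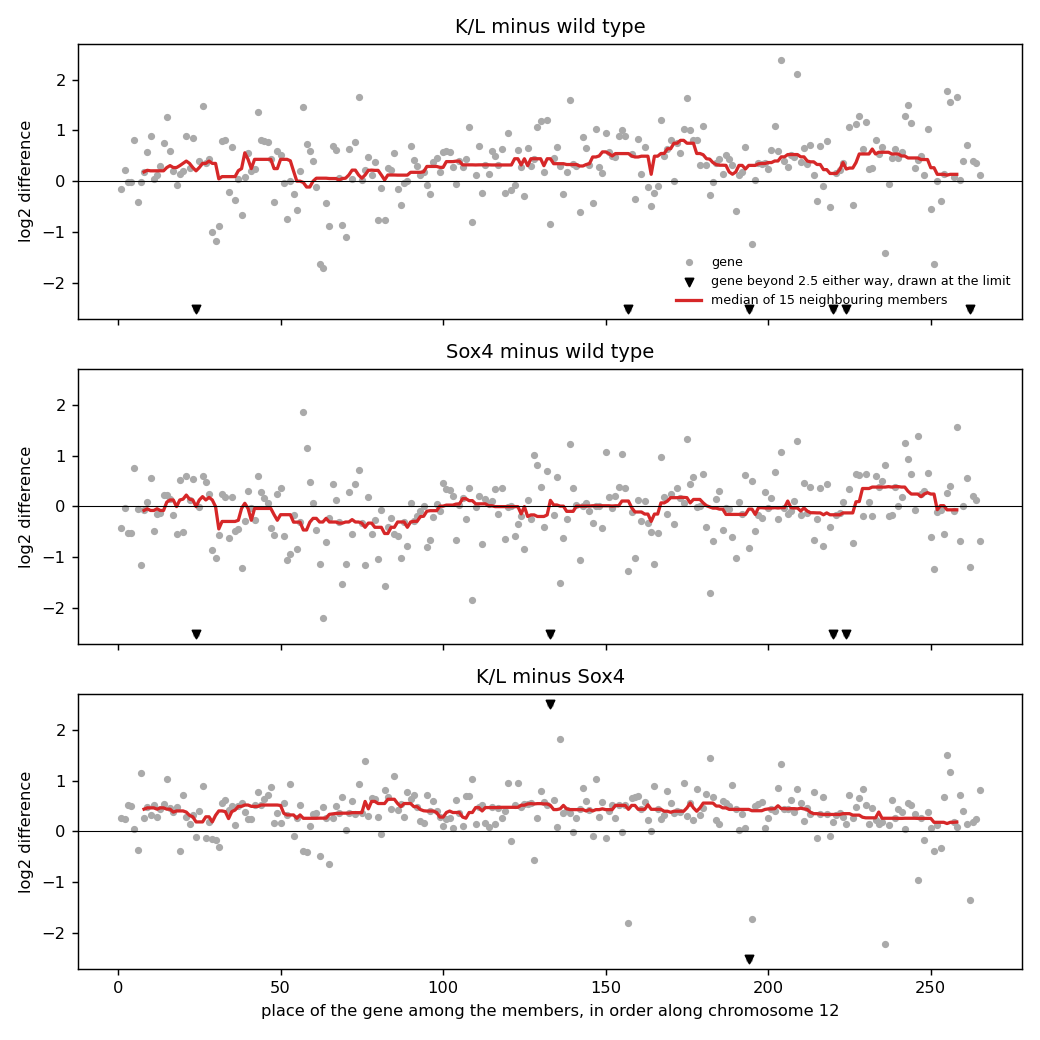
Log2 difference (vertical axis) of each of the 265 genes in order along chromosome 12 (horizontal axis) for K/L minus wild type, Sox4 minus wild type and K/L minus Sox4, with the running median of 15 genes as a line and genes beyond 2.5 drawn at that limit. The K/L minus Sox4 line stays above 0 throughout, between 0.15 and 0.63, while the Sox4 minus wild type line runs on both sides of 0.

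By role, 9 of the 10 lists had a median above 0 in K/L, and differences between lists were not tested. Of all 265 genes, 53.2% were higher and 13.6% lower in K/L than in wild type cells, and 22.3% rose and 31.3% fell in Sox4 cells. Of 35 transcription and chromatin genes, 18 were higher and 5 lower in K/L than in wild type cells (median 0.31), while 6 rose and 14 fell in Sox4 cells (-0.15). Among 13 DNA repair and replication genes, 10 were higher and 0 lower in K/L (median 0.53), and 4 rose and 0 fell in Sox4 cells (0.25). Of 31 chaperone and membrane traffic genes, 21 were higher and 2 lower in K/L (0.38), and 8 rose and 6 fell in Sox4 cells (0.14).

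The 30 mitochondrial and metabolic genes had 18 higher and 6 lower in K/L (median 0.46), and 9 rose and 12 fell in Sox4 cells (0.01). Of 24 signalling genes, 11 were higher and 3 lower in K/L (0.38), and 3 rose and 9 fell in Sox4 cells (-0.18). The RNA processing (20 genes), translation (7), protein turnover (13) and cytoskeleton and adhesion (11) lists had 9, 3, 7 and 7 higher in K/L. In the same order, 1, 1, 1 and 3 were lower in K/L, 2, 1, 2 and 4 rose in Sox4 cells and 5, 0, 3 and 3 fell. The 10 blood cell and immune genes, which include Crip1, Ighm and Tnfaip2, were the 1 list with a median below 0 in K/L (-0.13), with 4 higher and 3 lower, and 5 of the 10 escaped.

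**Figure D5:**
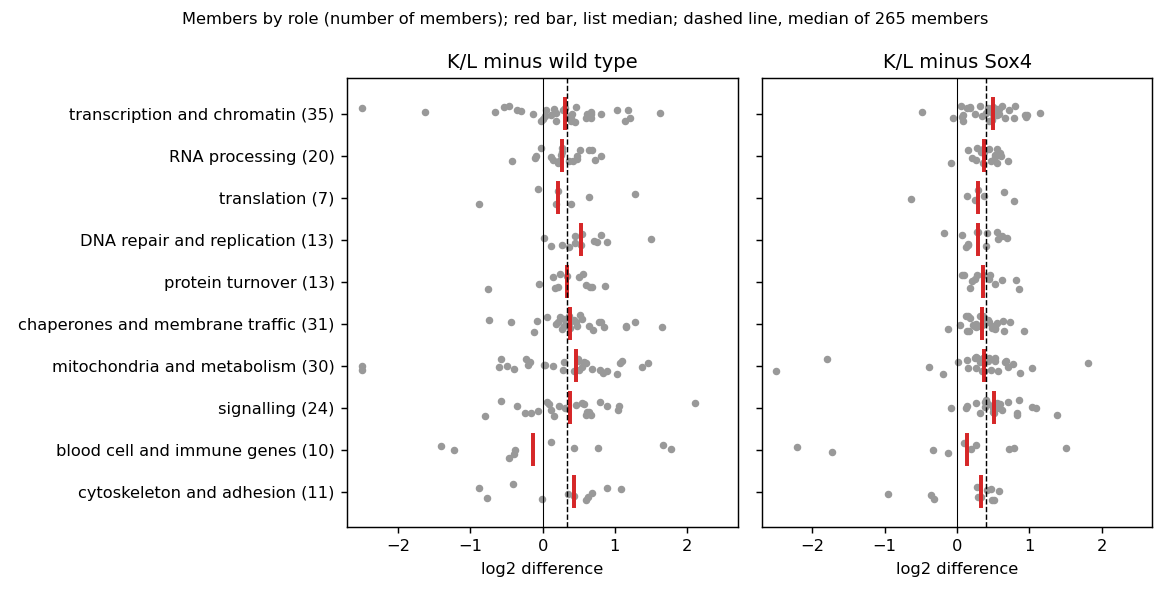
Log2 difference (horizontal axis) of the genes of each role list (vertical axis, number of genes in brackets) for K/L minus wild type and K/L minus Sox4, drawn at -2.5 where lower, with a red bar at the list median. Against wild type the blood cell and immune list has its bar at -0.13 and the other lists lie between 0.21 and 0.53, while against Sox4 that list is at 0.14 and the others lie between 0.28 and 0.51.

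CG dinucleotides before the start of the gene were counted for the 235 genes with an upstream window in RefSeq (GRCm38.p6). CG reads the same on both strands. Taking for each gene the annotated start with most CG, 10 of 59 escaping genes (16.9%) had fewer than 5 CG in the 250 bases, against 1 of 35 exceeding (2.86%) and 6 of 141 following genes (4.26%), and 5.59% of genes on the other chromosomes. Taking the most upstream start, a rule added after those counts had been seen, gave 13 of 59 (22.0%), 1 of 35 (2.86%), 7 of 141 (4.96%) and 7.62%. The median number of CG was 16 in escaping genes under both rules and 20 or 19 in exceeding and following genes. On the other chromosomes it was 18 or 17. The values for other chromosomes are over all their genes, since genes at or below 0 there were not counted apart. Whether few CG before the start is particular to escaping genes of chromosome 12 was therefore not tested. Neither rule was set in advance, the classes come from the same K/L values, and no test was made.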

How the data were processed

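Total RNA of 9 sorted samples was hybridised to Affymetrix mouse arrays. The authors deposited linear intensity values, never below 8, for 45101 probe sets, and RMA is named per the submitters' processing notes; the sources used here give neither its version nor any later scaling. The deposited intensity values were log2 transformed and otherwise used as scaled. Array medians lay between 5.43 and 5.55 (log2); precision is limited by how few arrays there were.

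Probe sets were named from the platform annotation (34958 had 1 symbol, 932 several, 9211 none), and chromosome and gene order were taken from a RefSeq gene table of GRCm38.p6. Genes above the 40th percentile on at least 3 arrays were tested (12866). Differences were tested with limma 3.58.1 in R 4.3.3 (lmFit, eBayes), 1 fit of all 9 arrays with group as the only term (6 residual and 3.64 prior degrees of freedom), with Benjamini-Hochberg adjustment over all tested genes at 0.05; all 265 genes passed the filter. The procedure was tested on simulated data. A two-sided permutation test of 3 against 3 arrays cannot go below 0.1, so none is given.

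The genes, the 10 role lists and the rules were chosen with earlier results of these data known. Named genes are the 8 highest and 8 lowest K/L differences, the 8 most abundant, the 4 largest rises and falls in Sox4 cells, those at the threshold and up to 2 per list; not all are printed. Genes named at class limits, Gpr65, Bzw2 and the genes at window ends were chosen after their values were seen. The 2 rules for a gene's start in the CG counts were both chosen after the data were examined, and the second after the counts of the first were known. Same-numbered arrays of different groups did not deviate together (correlations -0.02 to 0.08), so the numbers were not taken as pairs.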

Additional observations from a re-analysis of the deposited data

Results flagged for a closer look

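Of the 43 genes named by rule, 20 changed from wild type by a different amount in the 2 leukaemias, by the limma test of K/L against Sox4 cells, beside 3709 of 12866 genes tested. The test uses the K/L arrays that chose the chromosome, and some of these genes were named for their K/L difference, so the count is a description. In 15 of them K/L lay higher. The log2 differences, K/L minus Sox4, were 1.51 for Crip1, 1.32 for Dglucy, 1.16 for Tedc1, 1.14 for Dnmt3a, 1.10 for Nfkbia, 1.04 for Hs1bp3, 1.03 for Map4k5, 0.93 for Heatr5a, 0.87 for Acp1 and 0.83 for Rin3. Smaller ones were 0.57 for Abcd4, 0.44 for Psma6, 0.43 for Fcf1, 0.37 for Acyp1 and 0.28 for Rps29. The second probe set of Heatr5a gave -0.05. The Rin3 call was lost when any 1 of the 6 leukaemic arrays was left out (0.74 to 0.88), and the Rps29 call when any of them but Sox4 array 2 was (0.25 to 0.32 over all arrays left out). The Acyp1 call was lost without Sox4 array 1 or 2 or K/L array 1 or 3 (0.32 to 0.42 over all arrays left out).

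In 5 genes K/L lay lower: Galc by -3.34, Tnfaip2 by -2.21, Acot1 by -1.79, Rapgef5 by -1.36 and the formin Inf2 by -0.95. Tnfaip2, Acp1 and Nfkbia passed the test in opposite directions in the 2 leukaemias relative to wild type.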

How the results depend on the processing

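The distance between the chromosome 12 median and that of the other chromosomes stayed between 0.319 and 0.365 for K/L minus wild type and between 0.39 and 0.42 for K/L minus Sox4 under the scalings, filters, probe set rules and level thresholds tried, so the level of a median depends on the scaling more than this distance does. For Sox4 minus wild type the distance ran from -0.12, with the mean of all probe sets, to -0.03. With arrays centred on their median, the K/L minus wild type median was 0.42, with 0.48 and 0.33 in the middle and highest tertiles, 0.31, 0.29, 0.49 and 0.49 in blocks 1 to 4 and 0.90 in the highest window. Quantile normalization gave 0.36, and 0.41 in the middle tertile. With the mean of all probe sets the K/L median was 0.25 and the Sox4 median -0.18, the lowest and middle tertiles 0.24 and 0.29, blocks 3 to 5 0.27, 0.25 and 0.27, and the windows -0.27 to 0.52; Psma3 in Sox4 cells turned to -0.48. With a wild type threshold of 6, 59 genes exceeded, and the medians were 0.56 and 0.39 in the lowest and middle tertiles and 0.27, 0.31 and 0.44 in blocks 1, 3 and 4. With a threshold of 8, 37 genes rose in Sox4 cells, 5 were lower in K/L than in Sox4 cells and 23 exceeded; the medians were 0.29 (K/L) and -0.093 (Sox4), 0.33 and 0.39 in the lowest and middle tertiles, 0.26, 0.042, 0.31 and 0.36 in blocks 1 to 4 and 0.54 in the highest window. A class width of 0.3 or 0.75 gave 73 or 22 exceeding genes. Windows of 25 genes ran from 0.0037 to 0.68, so the lowest was no longer below 0. Using probe sets ending in _x_at last, chosen after seeing the data, gave 0.39 in the middle tertile. The cause of these shifts was not tested.

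Leaving out each array in turn gave 120 to 140 genes higher and 32 to 39 lower in K/L than wild type, 44 to 64 higher and 73 to 85 lower in Sox4 cells, and 112 to 179 higher and 7 to 11 lower in K/L than Sox4. The medians ran from 0.31 to 0.36 (K/L) and -0.083 to -0.032 (Sox4), the classes from 39 to 50 exceeding, 147 to 159 following and 61 to 71 escaping. Tertile medians ran from 0.45 to 0.55, 0.35 to 0.39 and 0.23 to 0.25, block medians from 0.21 to 0.29, 0.19 to 0.23, 0.36 to 0.44, 0.38 to 0.44 and 0.37 to 0.41, and the windows from -0.21 to -0.07 and 0.66 to 0.81. With the replicate number as a block, 135 and 36 genes were higher and lower in K/L than wild type, 55 and 79 in Sox4 than wild type, and 136 and 8 in K/L than Sox4. Over the alternative fits that tested named genes, their values kept direction and side of the threshold in 2057 cases, gained the threshold in 70, lost it in 41 and reversed in 1. The other level thresholds, class widths and window size are not part of these counts. Under both start rules the escaping genes had the largest share with fewer than 5 CG (16.9% and 22.0%). The rules share their genes and classes, and the second was added after the first counts were seen, so they are not independent.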

Other observations

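Among the 135 genes with a second probe set above 7 in wild type cells, the second gave a median K/L minus wild type difference of 0.15, where the first gave 0.24 for the same genes, and a median K/L minus Sox4 difference of 0.39. Its median Sox4 minus wild type difference was -0.20. The K/L minus Sox4 difference was above 0 by the second probe set in 120 of the 135. The class was the same by both probe sets in 95 of them, with 26 genes escaping and 7 exceeding by both. For the Gapdh control, 3′ over 5′ signal was 2.68 to 2.91 on wild type, 2.22 to 2.44 on Sox4 and 1.93 to 2.00 on K/L arrays. For the actin control the groups overlapped, at 0.88 to 0.98, 0.88 to 0.91 and 0.87 to 0.91 in the same order. The part of such ratios in differences between probe sets was not tested.

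Of the genes left out by name, the means of wild type, Sox4 and K/L arrays were 4.56, 5.42 and 10.30 for Scin and 7.92, 10.46 and 10.96 for Fos. The K/L minus wild type difference was -0.05 for Odc1, 0.13 for Rrm2 and -1.02 for Id2.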
